A study of Mus musculus with 22 samples.

Results

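A set of 198 half-methylated tiles lying more than 20 kb from 22 named imprinted genes was examined in the mouse embryonic forebrain. DNA methylation had been measured by rapid reduced representation bisulfite sequencing (rRRBS), which reads CpGs near cut sites of the enzyme MspI, in 22 forebrains collected at E10.5, with 1 embryo per library. All embryos were wild-type C57BL/6. The 6 control (Ctrl) embryos came from dams given saline, and the 16 EtOH-exposed embryos came from dams given 2.5 g/kg ethanol in each of a pair of subcutaneous injections at E2.5. Embryos of a group shared litters, the labels do not assign embryos to litters, and each library holds the whole forebrain, so a level of 50% can come from any mixture of cells and alleles.

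The tiles were selected on the measured control values. A tile is a 100 bp window, and 114430 tiles on the 19 autosomes had at least 2 CpGs covered by 10 or more reads in at least 5 samples per condition. Of these, 42337 held at least 5 such CpGs. Members were the tiles in which every measured control sample lay at 35 to 65% and which lay more than 20 kb from 22 named imprinted genes, among them Gnas, Grb10, Plagl1, Peg10 and Kcnq1. A further 15 tiles met the same limits within 20 kb of those genes and served as the comparison set. They lay at Gnas, Peg10, Kcnq1, Plagl1, Grb10, Zrsr1 and Peg13 only, some of them adjacent, and are not 15 independent regions. The control means of the members ran from 37.2 to 62.8% with a median of 50.7%, which is a description of the selection and not a result. Of the members, 124 were measured in 5 controls and 74 in 6. Just inside the limits, the lowest controls stood at 35, 35 and 35.06% and the highest at 64.89, 64.96 and 65%. Just outside, tiles that failed on 1 side had lowest controls of 34.58, 34.62 and 34.84% or highest controls of 65.13, 65.14 and 65.17%.

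Methylation near the middle of the scale is the known signature of imprinting control regions, where an allele inherited from one parent carries methyl groups on its CpGs and the other allele carries none. Such regions keep their marks through the wave of demethylation in the early embryo, through zinc finger proteins such as ZFP57 that bind a methylated TGCCGC motif. Levels near the middle can also come from a mixture of methylated and unmethylated cells, from CpGs of unlike level within a window, or from reads of several genomic copies. The files hold totals of reads per CpG, so alleles and single molecules were not analysed here.

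The reference sequences of 7 members are shown because they hold even as well as uneven tiles, though the most uneven members are not among them. They are given on the plus strand of GRCm38, and capitals mark the CpGs whose pooled control level was 35 to 65%. The tiles are, in order, in exon 5 of Npcd (chr15:79828901-79829000), in intron 1 of Mbnl2 (chr14:120287601-120287700), between genes with the start site of Gm30529 nearest (chr5:112625801-112625900), in exon 8 of Hcn2 (chr10:79735201-79735300), in exon 2 of Cdkn1c (chr7:143460201-143460300), and in the promoters of Boll (chr1:55362901-55363000) and Gga3 (chr11:115604801-115604900).
Npcd: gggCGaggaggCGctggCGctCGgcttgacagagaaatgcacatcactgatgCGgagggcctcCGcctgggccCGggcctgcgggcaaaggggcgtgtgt
Mbnl2: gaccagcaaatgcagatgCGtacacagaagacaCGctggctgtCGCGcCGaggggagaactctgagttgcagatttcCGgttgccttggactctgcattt
Gm30529: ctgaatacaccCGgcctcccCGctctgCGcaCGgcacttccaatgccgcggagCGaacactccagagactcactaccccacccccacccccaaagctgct
Hcn2: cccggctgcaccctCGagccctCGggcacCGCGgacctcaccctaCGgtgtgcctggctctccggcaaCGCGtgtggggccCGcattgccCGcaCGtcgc
Cdkn1c: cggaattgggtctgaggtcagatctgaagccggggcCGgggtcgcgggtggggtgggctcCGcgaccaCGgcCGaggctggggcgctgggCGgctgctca
Boll: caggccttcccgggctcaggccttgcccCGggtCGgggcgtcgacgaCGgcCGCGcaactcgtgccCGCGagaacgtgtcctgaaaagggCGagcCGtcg
Gga3: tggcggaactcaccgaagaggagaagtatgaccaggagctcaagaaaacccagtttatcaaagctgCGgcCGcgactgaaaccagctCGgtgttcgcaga

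The members were scattered over the genome. They formed 173 loci, counting tiles less than 2 kb apart as 1 locus, and 153 of these loci were a single tile. Members were present on every autosome, with the most on chromosome 12 (24 tiles) and chromosome 8 (22 tiles). Coding exons held 77 members (38.9%), against 17.4% of all analysed tiles with at least 5 CpGs. Introns held 43 and other exons 8. Between genes lay 47 members (23.7%, against 8.53%). A promoter, here 1000 bp upstream to 100 bp downstream of a RefSeq start site, held 23 members (11.6%, against 46.4%). A tile in a promoter was counted there even where it also lay in an exon or intron. The 460 tiles of middle pooled control level outside the named genes, which include the members, had similar shares, with 37.6% in coding exons, 22.4% between genes and 10.2% in promoters. The median distance to a start site was 7462 bp, and it was 683 bp for the tiles near the named imprinted genes and 271 bp for all tiles with at least 5 CpGs. No test was run on these shares, because neighbouring tiles are not independent.

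The letters TGCCGC, searched on both strands within the 100 bp, were present in 17 members (8.59%). The same letters were present in 12.1% of all tiles with at least 5 CpGs and in 4 of the 15 tiles near the named imprinted genes (26.7%). Among the sequences shown above, Gm30529 carries them. A match is a description of the letters and not of a bound site.

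Of 59 further imprinted genes, all found in the annotation, 471 analysed tiles lay within 20 kb, of which 194 held at least 5 CpGs and 1 was a member (0.515%, against 0.468% of all tiles with at least 5 CpGs). The 194 were counted without leaving out tiles within 20 kb of the 22 named genes, which the rule barred from membership. These shares are therefore not like for like, and no match to the background is read from them. The member lay in exon 2 of Cdkn1c, which encodes the cyclin-dependent kinase inhibitor p57 and is expressed from the maternal allele. Its 5 controls stood at 48.8, 39.7, 48.7, 43.0 and 38.3%, and its 16 EtOH-exposed samples ran from 23.0 to 54.3% with a median of 37.8%. The EtOH-exposed samples extended below and above the controls, with 10 under the lowest and 2 over the highest. No member lay within 20 kb of 3 genes with metastable epialleles, of 16 germline genes or of 19 forebrain patterning genes, around which 15, 43 and 151 analysed tiles held at least 5 CpGs. At the 0.468% of all such tiles that were members, this is under 1 member for each list. Of the large gene families counted by symbol, numbered Zfp genes and the Pcdh and Olfr families labelled 0 members, and Vmn labelled 3, all in Vmn2r-ps16. The symbol of Zfpm1, whose intron 1 held 1 member, has no number after Zfp and was not counted, and numbered Zfp genes had the nearest start site at the 3 Vmn2r-ps16 tiles (Zfp992) and at 1 tile in Gm14121 (Zfp345).

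The CpGs of a member tile mostly differed from each other, and this pattern was measured in EtOH-exposed samples, whose coverage but not whose levels entered the selection. The SD of CpG levels within a tile, from reads pooled over the EtOH-exposed samples, had a median of 13.6 percentage points over the 198 members (quartiles 10 and 17.4). Over the 15 tiles near the named imprinted genes the median was 1.85 percentage points. In single EtOH-exposed embryos the medians were 14.8 and 2.91 percentage points. An SD under 5 percentage points was found for 7 members (3.54%) and for 10 of the 15 tiles near imprinted genes (66.7%). In the controls, the measured CpGs of a tile all lay at 35 to 65% in 26 members (13.1%) and in 12 of the 15 tiles. The 460 tiles of middle pooled control level, which include the members, resembled the members, with 12% of tiles that had all CpGs at 35 to 65% and a median SD of 12 percentage points in controls, against 13.2 for the members. The lowest and highest CpG lay more than 50 percentage points apart in 48 members in controls and in 37 in EtOH-exposed samples.

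**Figure D1:**
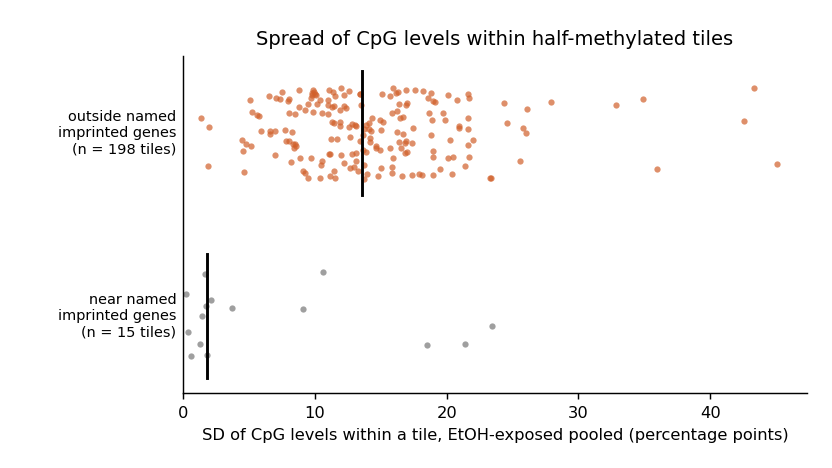
SD of the CpG levels within each tile (x axis, percentage points, reads pooled over EtOH-exposed samples), with 1 point per tile, vertical position random within a set, and the median as a black line. The 198 tiles outside the named imprinted genes had a median of 13.6, and the 15 tiles near them had a median of 1.85 with 5 tiles above 9.

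The order of the CpGs within a member was similar between the conditions. The CpG with the highest level in controls was also the highest in EtOH-exposed samples in 153 of 198 members, and the lowest CpG was the same in 159. Across the CpGs of a tile, the correlation between pooled control and pooled EtOH-exposed levels had a median of 0.978 over members and was above 0.9 in 170. These CpGs share libraries and reads, and the values are a description only. In the 15 tiles near imprinted genes the median was 0.737, and in 10 of them the CpGs differed by an SD under 5 percentage points.

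The sequences shown illustrate this. At Npcd all 7 CpGs lay between 53.3 and 61.4% in controls, with an SD of 2.76 percentage points, the smallest among the members. At Mbnl2, which encodes a muscleblind-like regulator of RNA splicing, the 6 CpGs lay between 39.1 and 50.9%. The 12 CpGs of Hcn2, a hyperpolarization-activated channel gene, instead spanned 21.4 to 76.2%, with 10 of them at 35 to 65%. The exon of Cdkn1c was uneven as well, with 9 CpGs between 18.1 and 57.4%. At the Boll promoter 15 CpGs spanned 26.1 to 58.3%. The Gga3 promoter, of a gene for a trafficking adaptor at the Golgi, went from 15.9 to 79.9% over 7 CpGs, and its mean near 40% described few of them.

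**Figure D2:**
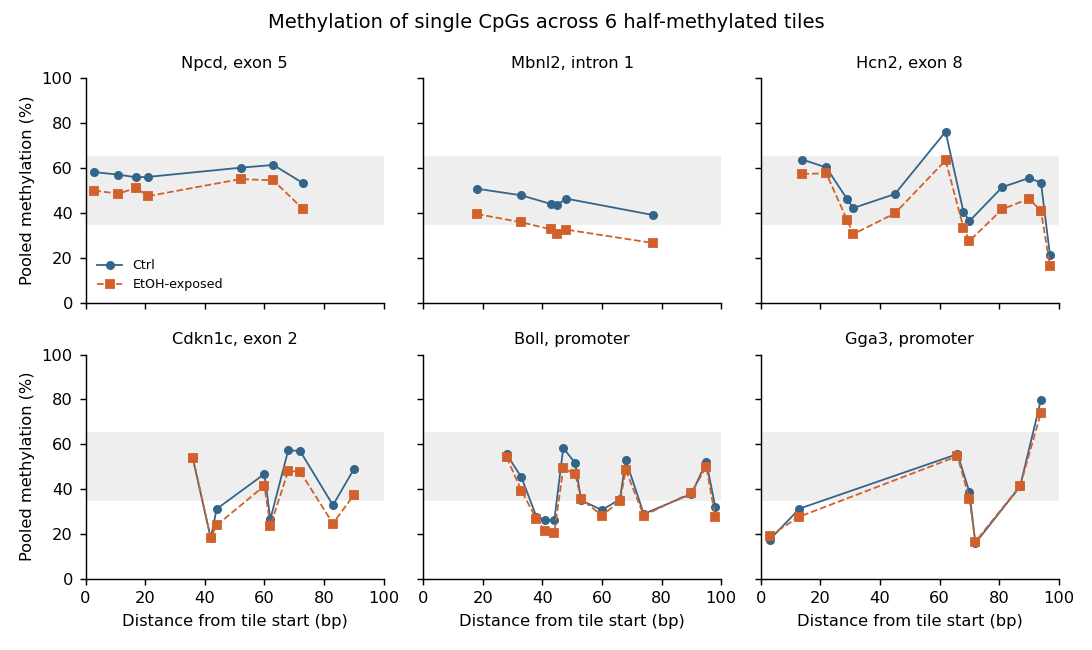
Methylation of single CpGs (y axis, percent, reads pooled within a condition) by distance from the start of the 100 bp tile (x axis, bp) in 6 member tiles, with Ctrl as filled circles, EtOH-exposed as squares and the band from 35 to 65% in grey. Npcd and Mbnl2 are even across their CpGs, while Hcn2, Cdkn1c, Boll and Gga3 are uneven, with a similar shape in both conditions.

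The other 4 of the 5 most even members were Gm33823 (SD 2.77 percentage points in controls), Kank1 (2.97), Gm16372 (3.16) and Gm34205 (3.72). Kank1 encodes an adaptor of the cytoskeleton. The Kank1 tile, in intron 1 (chr19:25249401-25249500), stood at 48.5, 51.6, 57.5, 52.8 and 58.8% in 5 controls and ran from 28.9 to 66.4% with a median of 48.1% in EtOH-exposed samples. At Npcd, the 6 controls ran from 49.3 to 62.5% (median 57.2%), and the EtOH-exposed samples ran from 24.3 to 64.3% (median 51.1%). Both groups overlapped at these tiles, with 8 of 16 EtOH-exposed samples under the lowest control at Kank1 and 6 of 16 at Npcd.

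The mean control level beside a member was mostly between 20 and 80%. A flank was the mean pooled control level of all analysed tiles within 500 bp on a side, other members included. It was called low under 20%, high over 80% and middle between, a wider band than that of the members. At least 1 flank was measured for 150 members. Every measured flank was middle at 117 of them, 73 of which were measured on 1 side only. A low flank was found at 24 and a high one at 9. Such a mean can join low and high tiles, and no share for other tiles is given, so no wider half-methylated region is read from it. None of the 61 members measured on both sides lay between a low and a high flank. Low flanks were found at 6 of the 21 promoter members with a measured flank, for example 2.88% at Deaf1 and 0.611% at Gga3.

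A total of 4 loci held 3 or more members. Palld, whose product palladin organises actin, carried 3 adjacent members in exon 11 (chr8:61549801-61550100) with control means of 55.7, 47.8 and 44.1%. In the first of these tiles the 6 controls ran from 53.4 to 58.4% (median 55.7%) and the EtOH-exposed samples from 36.4 to 70.6% (median 49.5%), with 11 of 16 under the lowest control. Ano8, an anoctamin gene, held 3 members across the border of exon 13 and intron 12 (chr8:71481101-71481400), and the EtOH-exposed means there, at 44.1, 54.8 and 54.1%, followed control means of 44.5, 58.2 and 56.2%, with overlap between the groups in each tile. The 3 tiles in Vmn2r-ps16, a vomeronasal receptor pseudogene (chr4:146474901-146475400), had control means of 50.3, 43.3 and 55.5%. The 4 tiles nearest to the start of Gm40880 (chr12:19703901-19704500) had control means of 52.5, 45.3, 58.7 and 58.1%.

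These last 2 loci lay in regions with repeated sequence. The central 32 bases of a tile had more than 1 exact copy in the reference genome for 24 members (12.1%), against 6.00% of all tiles with at least 5 CpGs and 0 of the 15 tiles near imprinted genes. The share was 10.7% over the 460 tiles of middle pooled level, which include the members, and 9.47% over all analysed tiles. Between 18 and 25 Mb of chromosome 12, a window chosen after the values were seen, lay 18 members among 371 analysed tiles, and 12 of them had more than 1 copy. Of the 5 members at Gm13238 and Vmn2r-ps16 on chromosome 4, 4 had more than 1 copy. The median SD among CpGs in EtOH-exposed samples was 17.9 percentage points for the 24 members with several copies and 13 for the 174 with 1. The part of several copies in the measured levels was not tested.

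The 23 promoter members served 21 start sites, and several belonged to genes known for work in germ cells. Boll encodes an RNA-binding protein of the DAZ family, Henmt1 the methyltransferase of piRNAs, Hormad2 a protein of the meiotic chromosome axis, Sox30 a transcription factor of spermatids and Rnf17 a Tudor domain protein of spermatids. None of these 5 genes was on the list of germline genes above, they were picked out after their values were seen, and no enrichment was tested. At Henmt1 the 5 controls stood at 52.1, 43.7, 38.4, 55.5 and 42.5%, and the EtOH-exposed samples ran from 18.5 to 50.6% (median 39.8%). At Rnf17 the 6 controls ran from 48.6 to 58.5% (median 54.0%) and the EtOH-exposed samples from 23.8 to 64.5% (median 43.8%), with 10 of 16 under the lowest control.

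The remaining 3 of these promoters overlapped between the groups as well. Hormad2 controls ran from 42.6 to 63.4% (median 50.7%) and EtOH-exposed samples from 34.9 to 53.8% (median 43.2%). Sox30 stood at 51.0, 48.9, 47.9, 58.7 and 57.8% in controls and ran from 45.5 to 62.3% (median 53.8%) in EtOH-exposed samples. Boll stood at 37.63, 38.50, 40.02, 40.86 and 43.05% in controls and ran from 31.4 to 42.2% (median 36.5%) in EtOH-exposed samples, with 11 of 16 under the lowest control. Only Sox30 among the 5 had a higher EtOH-exposed mean, by 1.11 percentage points between sample means and 4.09 when weighted by coverage (2.02 without Ctrl sample 2), and no difference at these 5 was called.

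The other annotated promoters belonged to genes of varied tissues. Vav1, a guanine nucleotide exchange factor of blood cells, had a control mean of 57.9% ± 4.54 (SD, n = 5) and an EtOH-exposed mean of 50.5% ± 5.88 (SD, n = 16). Csf2ra, a subunit of the GM-CSF receptor, stood at 62.0% ± 2.34 (n = 6) and 60.9% ± 3.16 (n = 16), and Acp5, the tartrate-resistant phosphatase of osteoclasts, at 53.0% ± 1.12 (n = 5) and 48.0% ± 5.68 (n = 16). Acta1 (skeletal actin, a tile with the start of the predicted gene Gm29773 nearest), Deaf1, Gga3, Rap1gap and Syne4 had EtOH-exposed minus control differences of sample means between -3.08 and -0.43 percentage points, and none was called. No direction is read from the lower sample means of Acta1, Deaf1 and Rap1gap, where the coverage-weighted difference changed sign with 1 sample left out. It ran from -0.49 to 0.75, from -1.21 to 0.93 and from -1.93 to 3.12 percentage points, respectively. At Gga3 it ran from -2.49 to -0.70 and at Syne4 from -6.32 to -1.08, with no change of sign. The rest were predicted genes (Gm13238, Gm46055, Gm32046, Gm3973, Gm36541, Gm52328, Gm46638 and LOC108167983), with Gm13238 and Gm46055 holding 2 tiles each and the start of Pik3r5 nearest to the Gm32046 tile. Over the 23 promoter members the EtOH-exposed minus control difference of sample means ran from -11.2 (Rnf17, -5.34 when weighted by coverage) to 1.11 percentage points (Sox30) with a median of -3.26.

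EtOH-exposed embryos had lower levels over the members in most but not all cases. The mean over the members was 48.6 to 51.6% in the 6 controls, a range narrowed by the selection. In the 16 EtOH-exposed embryos it was 45.8% ± 4.35 (SD), from 39.2 to 51.8%. The 15 tiles near the named imprinted genes had means of 43.0 to 53.9% in controls and of 24.1 to 54.1% in EtOH-exposed embryos. Each mean is over the tiles measured in that embryo, which were 130 members in Ctrl sample 2 and 143 in Ctrl sample 6. Near the imprinted genes, these samples gave the control extremes, 53.9% on 10 tiles and 43.0% on 11. The other controls, with all 15 tiles, ran from 48.4 to 52.4%. Within the EtOH-exposed group, the share of a given embryo's measured members that lay below the lowest control ran from 10.6% in sample 7 to 70.1% in sample 2. The share above the highest control ran from 1.5% in sample 2 to 24.2% in sample 12. Over the 460 tiles of middle pooled level, which include the members, the same shares ran from 9.61 to 65.6% below and from 1.32 to 22.3% above. Over the 262 of these that were not members they ran from 7.31 to 63.3% below and from 0.772 to 21.2% above. Over all analysed tiles they ran from 9.38 to 44.8% below and from 2.79 to 44.3% above. The members' control range was bounded by the selection.

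Coverage of methylated DNA differed between the embryos too. The coverage coefficient gives, for an embryo, the change in log2 coverage of MspI fragments from unmethylated to fully methylated, relative to the controls and with fragment length, GC content and CpG number in the model. It was estimated on 6416 fragments and ran from -0.233 to 0.384 in controls and from -2.88 to 0.10 in EtOH-exposed embryos. The widest gap between neighbouring coefficients set 4 EtOH-exposed embryos (-2.88 to -2.01) apart from the other 12 (-1.32 to 0.10). Member means were 39.2 to 41.9% in the 4 and 40.5 to 51.8% in the 12, so the ranges overlapped, through samples 2 and 9 at 40.5 and 41.3% with coefficients of -1.32 and -1.13. The coefficient measures coverage and the levels are shares of that coverage in the same libraries. In 3 of the 4, EtOH-exposed samples 4, 5 and 6, tiles unmethylated in controls also read 2.41 to 2.54%, against 0.26 to 1.52% in all other libraries. The DMR counts with this coefficient as a covariate, and without samples 4, 5 and 6, are given with the calls.

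**Figure D3:**
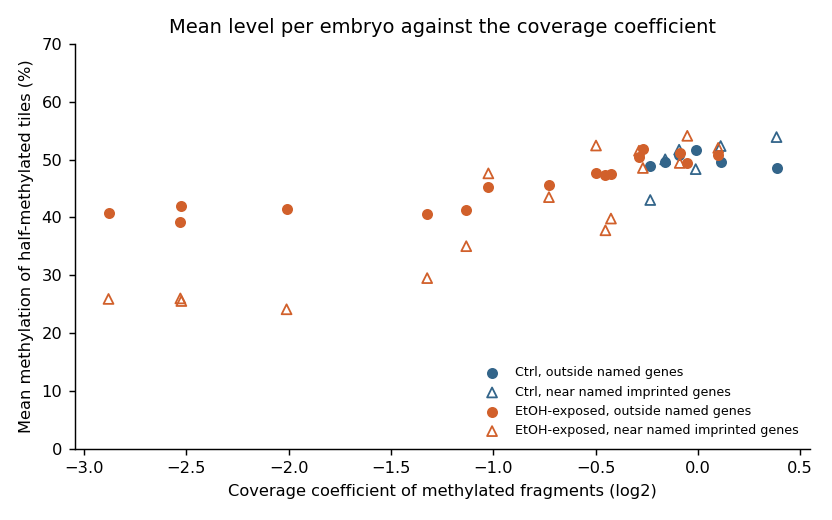
Mean methylation of the tiles in each embryo (y axis, percent) against its coverage coefficient of methylated fragments (x axis, log2), with filled circles for the tiles outside the named imprinted genes, open triangles for the 15 tiles near them, Ctrl in blue and EtOH-exposed in orange. The 4 EtOH-exposed embryos at or below -2.01 lie at 39.2 to 41.9% (circles) and 24.1 to 26% (triangles), and the other 12 spread over 40.5 to 51.8% and 29.5 to 54.1%.

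Tile by tile, the EtOH-exposed minus control difference of sample means had a median of -3.46 percentage points over the members, from -20.6 to 9.08. The median was -10.6 over the 15 tiles near imprinted genes and -0.104 over all analysed tiles, most of which were low in controls. Over the 460 tiles outside the named genes with at least 5 CpGs and a pooled control level of 35 to 65%, it was -3.85. These 460 include the 198 members, so they are not a separate background. Tiles were called as differentially methylated regions (DMRs) in a logistic test of pooled reads at an adjusted p under 0.01 and with conditions that differed by 10 percentage points or more when samples were weighted by coverage. By this rule 13 of 198 members (6.57%) were decreased, against 1.08% of all analysed tiles and 11.5% of the 460 tiles of middle pooled level, and 0 were increased, against 0.0516% of all analysed tiles. Because control values chose the members, nothing is read from these counts. When the spread between embryos entered the test, 0 members and 0 tiles overall were called at the same thresholds, with 30 members (15.2%) at an unadjusted p under 0.05 in the F test with overdispersion, against 5.77% of all tiles and 14.6% of the 460, and 22 (11.1%) in limma, against 4.45%. With the coverage coefficient as a covariate 1 member was decreased and 3 were increased, none of them among the 13, and without EtOH-exposed samples 4, 5 and 6 the decreased members numbered 4. The share of all tiles called in these fits is not given, so the change is not read as particular to the members.

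The 13 decreased members lay in coding exons (5), introns (4) and between genes (4), and none lay in a promoter. Jph3, which encodes a junctophilin that ties the plasma membrane to the endoplasmic reticulum in neurons, had the lowest difference of sample means (exon 2, chr8:121753201-121753300). Its 5 controls stood at 60.5, 51.2, 55.8, 63.8 and 53.6%, and 15 EtOH-exposed samples ran from 14.4 to 73.2% with a median of 33.8%. Most EtOH-exposed samples were low, with 12 under the lowest control, but sample 12 was above every control and samples 1 and 10 lay among them. The coverage-weighted difference was -11.2 percentage points, against -20.6 between sample means, and fell under 10 without Ctrl sample 4 or without EtOH-exposed sample 2.

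Hcn2 and Mbnl2 were among the 5 lowest differences too. At Hcn2 the 6 controls ran from 42.9 to 55.1% (median 46.6%) and the EtOH-exposed samples from 19.3 to 51.5% (median 34.5%). At Mbnl2 the controls ran from 41.9 to 50.2% (median 44.9%) and the EtOH-exposed samples from 11.1 to 47.3% (median 33.2%). In both tiles 13 of 16 EtOH-exposed samples lay under the lowest control, none lay above the highest, and the remaining 3 overlapped with the controls. Each of the 6 CpGs at Mbnl2 and of the 12 at Hcn2 was lower in the pooled EtOH-exposed reads, at Mbnl2 from 50.9 to 39.6% at the first CpG and from 39.1 to 26.6% at the last. The tiles were picked for low EtOH-exposed levels and their CpGs share reads and libraries, so the CpGs are not separate observations. With the coverage coefficient as a covariate the adjusted difference was 0.34 percentage points at Mbnl2 and 3.17 at Jph3, so both calls ended and the sign turned.

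Ctnna3 and Ltbp2 completed the 5 lowest differences. At the tile nearest to Ctnna3, the gene of alpha-T-catenin (chr10:63416501-63416600), controls stood at 62.3, 60.4, 54.0, 49.7 and 52.5%, and EtOH-exposed samples ran from 20.5 to 71.5% (median 37.4%). The highest control was exceeded by 2 of these samples, and 11 lay under the lowest. Its coverage-weighted difference was -11.7 percentage points and -9.82 without EtOH-exposed sample 6, which ended the call. The tile nearest to Ltbp2, the gene of a latent TGF-beta binding protein (chr12:84880301-84880400), stood at 49.8, 47.2, 63.0, 56.6 and 50.8% in controls and ran from 21.3 to 54.0% (median 35.7%) in 14 EtOH-exposed samples. It was not called, since its difference was -15.2 percentage points between sample means but -6.83 when weighted by coverage.

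**Figure D4:**
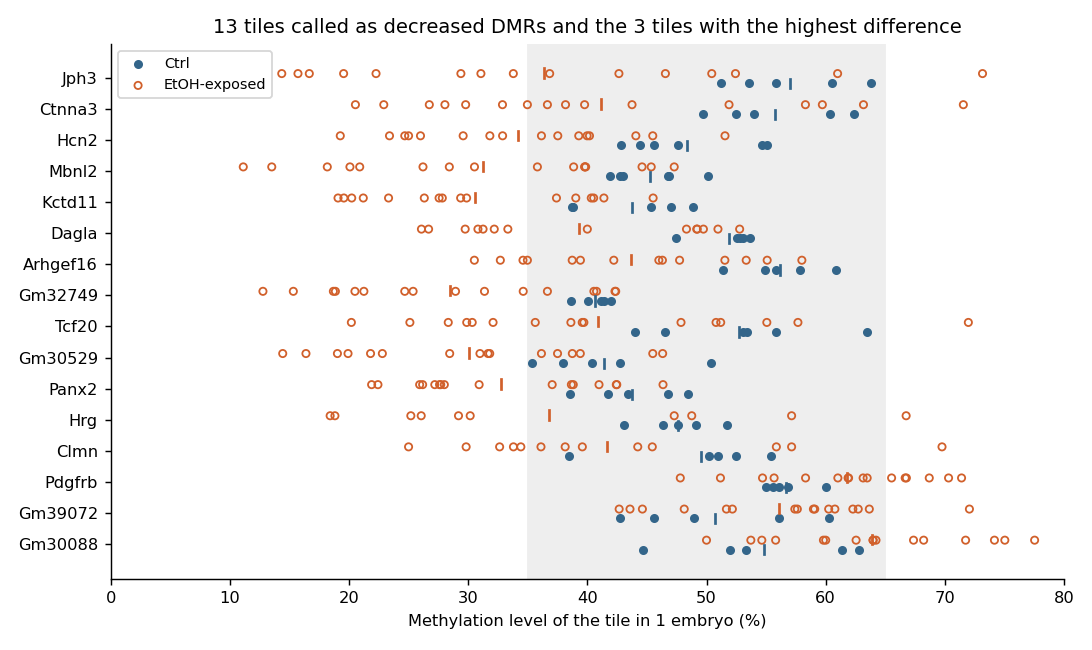
Methylation of 16 member tiles in single embryos (x axis, percent), with Ctrl as filled circles, EtOH-exposed as open circles and short vertical lines for the means. The upper 13 tiles were called as decreased and the lower 3 had the highest differences, the grey band marks 35 to 65%, and EtOH-exposed embryos spread over 14.4 to 73.2% at Jph3 while its controls stayed at 51.2 to 63.8%.

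The other 9 called members had coverage-weighted differences between -15.4 and -10.8 percentage points. They were Arhgef16, Gm30529, Gm32749, Kctd11, Clmn, Tcf20, Panx2 (a pannexin), Hrg (histidine-rich glycoprotein) and Dagla, which makes the endocannabinoid 2-arachidonoylglycerol. At Kctd11, whose product opposes Hedgehog signalling, the tile in exon 1 had a control mean of 43.8% ± 4.72 (SD, n = 5) and an EtOH-exposed mean of 30.5% ± 8.91 (n = 16), with 11 of 16 under the lowest control. Its coverage-weighted difference fell under 10 percentage points, and the call was lost, without Ctrl sample 4 or without Ctrl sample 5. At Tcf20, a transcriptional coregulator, the tile in intron 1 stood at 52.7% ± 6.93 (n = 6) and 40.9% ± 13.9 (n = 16), with 10 of 16 under the lowest control and sample 12, at 72.0%, above the highest. At each of the 13, some EtOH-exposed embryos lay under the lowest control and others did not, with SDs of 7.98 to 17.8 percentage points in that group. EtOH-exposed samples 4, 5, 6 and 11 lay under the lowest control at all 13, whereas sample 12 did so at 0 of 13. Samples 9 and 14 did so at each of the 11 and 12 where they were measured. The call chose tiles with low pooled EtOH-exposed reads, so these counts partly follow from it. Over all measured members, the share under the lowest control was 54.1, 68.6, 62.1 and 39.0% in samples 4, 5, 6 and 11. It was 63.9 and 56.4% in samples 9 and 14, and 12.6% in sample 12.

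Few members were higher in EtOH-exposed embryos, and none was called. Weighted by coverage, 176 of 198 members (88.9%) were lower. The share was 85.2% over the 460 tiles of middle pooled level, which include the members, and 56.2% over all analysed tiles. The direction is therefore not read as particular to the members. The tile nearest to Gm30088 (chr1:189582201-189582300) stood at 53.4, 61.4, 52.0, 44.7 and 62.8% in controls and ran from 50 to 77.5% (median 64.0%) in EtOH-exposed samples, with 9 of 16 above the highest control. Without Ctrl sample 2 its coverage-weighted difference rose from 6.86 to 10.7 percentage points and met the call. Gm39072 had a difference of 5.39 percentage points between sample means and 3.23 when weighted by coverage (1.64 without Ctrl sample 3), with 5 of 16 above the highest control. The tile in exon 7 of Pdgfrb, a receptor for platelet-derived growth factor, had controls at 60.02, 56.8, 56.1, 55.0 and 55.6% and EtOH-exposed samples from 47.8 to 71.4% (median 62.5%). There 11 of 16 EtOH-exposed samples lay above the highest control and 3 below the lowest.

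The EtOH-exposed embryos differed among themselves at nearly every member, a comparison that used no control value. In a chi-square test of methylated and unmethylated reads over the EtOH-exposed samples, adjusted over all tiles at 0.01, 197 of 198 members were called. The same test called 84.9% of all analysed tiles and 96.9% of tiles with at least 5 CpGs, so the members stood near the background. The median ratio of observed to counting variance was 12.4 over the members and 84.5 over the 15 tiles near imprinted genes. It was 11.4 over all tiles with at least 5 CpGs and 17.3 over the 460 tiles of middle pooled level, which include the members. The SD between EtOH-exposed embryos had a median of 6.92 percentage points over the members, and of 13.7 near imprinted genes. At 58 members every EtOH-exposed sample stayed within 35 to 65%, and at 18 members at least 1 fell under 20%. CpG calls on the same read are not independent, and reads from bisulfite PCR are not independent molecules, so the test covers counting error only. The counting variance takes every call as independent, so the ratios are not compared between sets with unlike CpG patterns.

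The libraries held 68126469 to 216223892 read calls at CpG positions, and the median number of such calls per member tile and sample was 800. The calls are summed over the CpGs of a tile, so a read counts at each CpG that it covers, and the reads are fewer. The lowest depth among named tiles was 47 calls, at Mbnl2, and the highest median, 10752 calls, was reached at the Gm13238 promoter, a tile of 16 CpGs with its 2 genomic copies.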

How the data were processed

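Counts of reads covering each CpG cytosine and percent methylated were deposited by the authors, with Trim Galore 0.3.3 for trimming, BSMAP 2.90 for alignment and mm10 as the build, per the study's methods. Both are given without normalization, by strand. Methylated reads were recovered as coverage times percent, rounded. Strands with at least 10 reads were kept and summed per CpG, and the CpGs of 100 bp tiles were pooled. All 4915652 autosomal positions lay at a CpG of the GRCm38 RefSeq reference. Distinct CpGs were those kept in at least 5 samples per condition. The members and gene lists were chosen with earlier results of these data known. Named were loci of at least 3 tiles, the 5 lowest and 3 highest differences, the 5 most even tiles, promoter tiles, tiles near listed genes, and the called tiles. Tests were a logistic likelihood ratio test with Benjamini-Hochberg adjustment over all tiles, an F test with overdispersion per tile, limma 3.58.1 on log2((methylated + 0.5)/(unmethylated + 0.5)), and a chi-square test among EtOH-exposed samples. The fits were checked on simulated counts. Computations used Python 3.11.15, numpy 2.4.6 and scipy 1.17.1. Precision is limited by 6 controls, and p-values of pooled reads ignore the spread between embryos.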

Additional observations from a re-analysis of the deposited data

Results flagged for a closer look

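In 5 of the 60 control groups examined, 1 control stood apart from the others (a gap above Dixon's 95% value for groups of 5 or 6), and chance flags about 1 in 20 groups. At the third Palld tile, Ctrl sample 3 stood at 55.95%, against 37.88 to 42.77% in the others. At the second Ano8 tile, Ctrl sample 6 stood at 53.48%, against 58.54 to 60.13%. At the second Gm40880 tile, Ctrl sample 3 stood at 53.12%, against 42.80 to 45.77%. At Dagla, Ctrl sample 3 stood at 47.45%, against 52.56 to 53.62%. At Csf2ra, Ctrl sample 6 stood at 57.43%, against 61.73 to 63.42%.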

How the results depend on the processing

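The number of members depended on the limits that define them. It was 358 with controls at 30 to 70%, 64 at 40 to 60%, 113 with a minimum of 20 reads (99 shared with the 198), 311 with 5 CpGs kept in any sample and 73 when all 22 samples were required. It was 245 with a minimum of 5 reads and 197 beyond 100 kb. The number of called members, 13, became 0 in the F test with overdispersion, 0 in limma, 7 with a minimum of 20 reads, 20 with unweighted means, 4 with the coverage coefficient as a covariate and 4 without EtOH-exposed samples 4, 5 and 6. With the covariate, the adjusted differences at Jph3 and Mbnl2 turned to 3.17 and 0.34 percentage points. Leaving out 1 sample at a time gave 11 (without Ctrl sample 4) to 17 called members (without Ctrl sample 2). Called members were counted among the 198 where still analysed. Beyond the F test and limma, the share of all tiles called is not given, so these counts are not read as particular to the members.

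Both groups carry the numbers 1 to 6. With the replicate block over these numbers 56 members were called, and with no replicate block 46 in the same 12 samples. The share of all tiles called in these fits is not given, so neither count is read as particular to the members. Deviations of same-numbered samples correlated between -0.124 and 0.255 over 2762 tiles. The highest value was at number 2, where the same-numbered EtOH-exposed sample was also the best match. The numbers were not read as pairing the samples, and a shared batch was not tested.

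The mean member difference, -4.08 percentage points, ran from -4.48 to -3.65 with 1 sample left out and was -2.89 without EtOH-exposed samples 4, 5 and 6. After the data were seen, members with 1 genomic copy were taken alone. All 13 called members were among these. The number of members at which EtOH-exposed samples differed was 156 on the deepest CpG alone and 195 without samples 4, 5 and 6. Both counts stand without the share of all tiles under the same change. The causes of these shifts were not tested. Tiles cover only CpGs near MspI sites.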
